A study of Zea mays with 33 samples.

Results

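The first internode below the ear of the maize line B73 was compared with the unpollinated ear that stands on the node above it. The comparison rests on 6 of the 33 RNA sequencing libraries of the study, chosen by their labels alone: 3 of the internode (PS_IN1) and 3 of the ear (PS_EAR). The study sequenced 11 tissues in triplicate, in order to build networks of transcription factors and their target genes. All 6 libraries came from wild-type B73 plants sown on the same day, grown in 1 greenhouse and sampled at pollen shed. All were labelled WW, with no treatment given in the labels, and each library was made from 1 plant. Replicate 1 of each organ was harvested on 25 November and replicates 2 and 3 on 28 November. Of the internode, the part just above its node was taken. Of the ear, which had been bagged to keep pollen out, the middle was taken, without its tip and base.

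An internode of a flowering maize stem is a support and transport organ. Its vascular bundles carry water up and sugars towards the ear, and many of its cells have thickened walls, while the base of an internode is the part that grows last. The ear is the female inflorescence, rows of florets with their ovules on a thick axis, and draws on sugars and amino acids that reach it through the stem. Each library is a mixture of the cell types of its organ. In such bulk samples fewer cells of a type and less RNA per cell cannot be told apart.

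The 6 libraries had 19.4 to 37.9 M reads on genes (15.8 to 42.9 M in all 33). Levels are given as CPM, counts of reads per gene relative to the size of the library, after scaling of the library sizes (TMM). Of 46430 features, 33507 had a read in at least 1 of the 6 libraries. Of the features, only the 365 organelle genes could be tied to a gene name through the reference. Nuclear genes are given by their ID, with a name or family where the study gives one, and the usual markers of stem, floret or leaf could not be looked up. The other 9 tissues, to which both organs are set below, were the adult leaf (PS_LF, the blade of the last full leaf), the silks (PS_SILK) and the tassel (PS_TAS) at pollen shed, the expanded (V2_LF) and the white immature leaf (V2_LF-I) of seedlings, young roots (DAS4_R) and hypocotyls (DAS4_HY), and seeds 12 and 35 days after pollination (DAP12_S and DAP35_S, called 12 DAP and 35 DAP seed).

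Replicates of an organ were alike. The Pearson correlation of log2 CPM across 28997 genes, which are not independent replicates, ran from 0.986 to 0.993 among ears and from 0.977 to 0.987 among internodes, against 0.785 to 0.813 between the organs. In each organ the library of the earlier harvest correlated least with the others. Among genes with a mean of at least 10 CPM, internode replicate 1 was over 4-fold from both other internodes in 50 genes, in 45 of them below, whereas internode replicates 2 and 3 were so in 15 and 5. For the ear these numbers were 16, 5 and 1. With 1 library per organ from the earlier date, the harvest date and the individual plant cannot be told apart.

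The internode and the ear differed in most of the genes tested. Of 28997 genes tested, 17674 (61.0%) differed at an adjusted p below 0.05 in edgeR's quasi-likelihood test. Of these, 8903 (30.7% of the genes tested) were higher in the internode and 8771 (30.2%) were higher in the ear. The split between directions depends on how libraries are scaled: with upper quartile scaling 8112 and 9659 genes were called. As the filter used all 33 libraries, the genes tested include some without a read in either organ. These enter with a log2 fold change of 0, and the median of 0.00 is in part set by them. The median size of the change was 0.91 on the log2 scale. Since organs differ in so many genes, a second rule was used that also asks for a log2 fold change beyond 2, that is, over 4-fold. By it, 3747 genes (12.9%) were higher in the internode and 3819 (13.2%) were higher in the ear. Beyond 16-fold, 1629 genes were higher in the internode and 1885 in the ear, and beyond 256-fold there were still 269 and 274. All 3 internodes lay above all 3 ears in 9376 genes and below them in 9670. The organs overlapped in 9951, a number that includes the genes without a read in either organ.

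**Figure D1:**
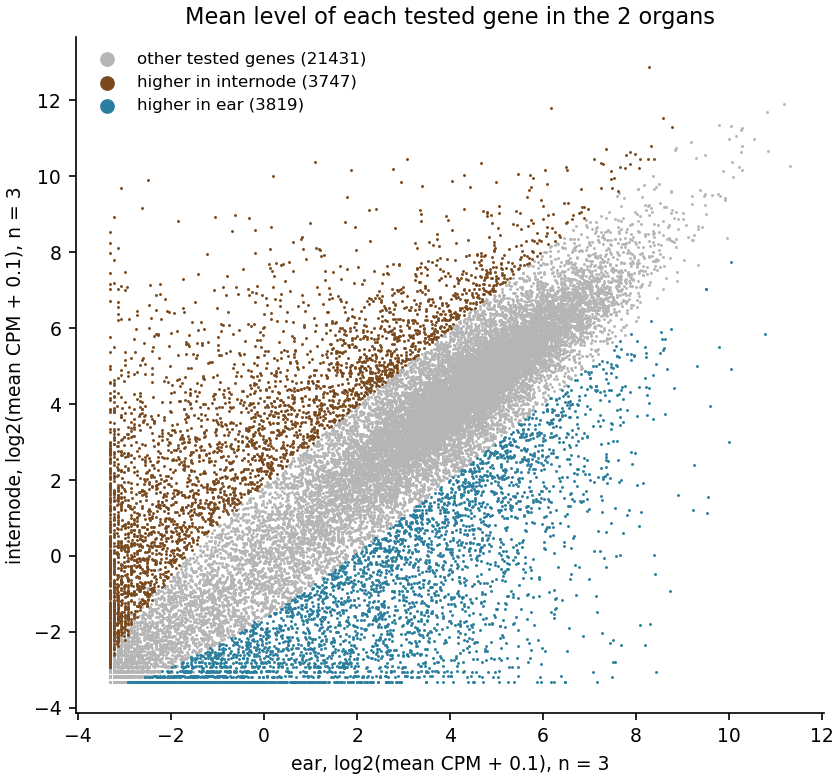
Mean level of each of the 28997 tested genes in the ear (x axis) and the internode (y axis), both as log2(mean CPM + 0.1) over 3 libraries. Brown points are the 3747 genes over 4-fold higher in the internode, blue points the 3819 genes over 4-fold higher in the ear, both at an adjusted p below 0.05, and grey points all other genes. The rows of points along the lower and left edges are genes with few or no reads in 1 organ.

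The larger folds were found at low as well as high levels. When the tested genes were cut into 4 equal classes by their mean over the 6 libraries, 38.9%, 68.1%, 66.6% and 70.1% of the classes, from the lowest to the highest, were called at an adjusted p below 0.05. Changes over 4-fold were found in 32.3%, 36.1%, 18.3% and 17.7% of them. In the highest class, above 27.7 CPM, 790 genes were higher in the internode by this rule and 491 were higher in the ear. In the lowest class the split went the other way, with 1099 and 1243.

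The internode placed its reads on fewer genes than the ear. In the 3 internode libraries, 1613, 1586 and 1583 genes held 50% of the reads on genes. In the 3 ears 2129, 2176 and 2249 genes were needed. The organs did not overlap (1594 ± 16.5 against 2185 ± 60.5, SD, n = 3 each), and the exact two-sided permutation test gave p = 0.1, the smallest that 3 against 3 libraries can give. The 10 genes with most reads took 3.82%, 4.21% and 4.15% of the reads of the internodes and 2.49%, 2.53% and 2.44% of those of the ears. The 100 leading genes took 15.9% ± 0.36 and 10.7% ± 0.15 (SD, n = 3), respectively. These shares follow reads and were not adjusted for gene length, and their counting error (Wilson, 95%) was at most 0.017 percentage points. As PCR reads carry no molecular identifiers here, such intervals cover counting error only.

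Many of the leading genes of the internode, and fewer of those of the ear, were higher there than in the other organ. Of the 100 genes with the highest mean CPM in the internode, which ranged from 625 to 7467 CPM, 81 were called higher there than in the ear, 54 of them over 4-fold, and 2 were called lower. Of the 100 leading genes of the ear, from 382 to 2543 CPM, 45 were called higher in the ear, 22 of them over 4-fold, and 22 were called lower. Over all tested genes, 30.7% were called higher in the internode and 30.2% higher in the ear, 12.9% and 13.2% of them over 4-fold. The lists had 36 genes in common. Since leading genes were picked for a high mean in 1 organ, some excess in that direction is built into the counts. Among the 11 tissues, 43 of the 100 leading internode genes had all 3 internode libraries above every library of the other tissues. In the same way, 10 of the 100 leading ear genes were highest in the ear. Over all features the shares were 2.63% and 2.01%, and the choice of leading genes by level in the organ favours such genes.

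The genes over 4-fold higher in the internode took 25.0%, 25.4% and 25.4% of the reads of the internodes, and in the ears the same genes took 3.17%, 3.27% and 2.77%. The genes over 4-fold higher in the ear took 15.9%, 13.8% and 14.1% of the reads of the ears and 0.90%, 1.14% and 0.99% of those of the internodes. As the genes were picked on these libraries, the gap between the organs is a description.

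**Figure D2:**
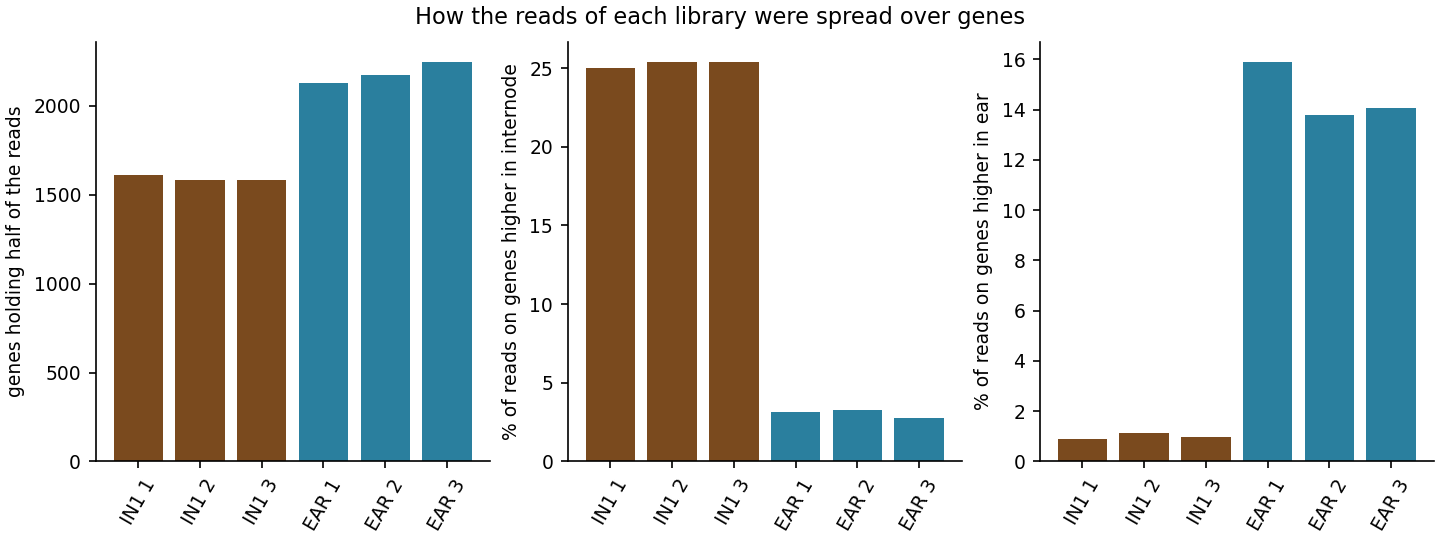
Bars give 1 library each, brown for the internode and blue for the ear. Left, the number of genes holding 50% of the reads, 1583 to 1613 in the internodes and 2129 to 2249 in the ears; middle and right, the percentage of reads on genes over 4-fold higher in the internode and in the ear, with 25.0% to 25.4% and 13.8% to 15.9% in the organ where the genes are higher.

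Some genes were read in 1 organ only. A read was found in every internode library for 25739 features, in every ear library for 26713 and in all 6 for 24151. Of the features with a read in all 3 internodes, 397 had none in any ear, and 73 of these had at least 1 CPM in each internode. For the ear the counts were 824 and 111. The ears were read more deeply as a group, with 19.4, 37.9 and 34.5 M reads on genes against 23.9, 28.7 and 25.5 M in the internodes. Weak genes are thus more easily seen in the ears, and the counts were not adjusted for depth. At 10 CPM or more in each library there remained 18 internode genes and 16 ear genes without a read in the other organ. Few of them were restricted to 1 organ of the plant: of the 73 internode genes 69, and of the 111 ear genes 95, reached a mean of 1 CPM in at least 1 of the other 9 tissues. A count of 0 in the 3 ears allows up to 3 reads over the group, or 0.0225 CPM, and in the 3 internodes 0.0323 CPM.

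The genes with the largest fold at a mean of at least 50 CPM were of this kind. Zm00001d028599 stood at 363, 443 and 310.5 CPM in the internodes (372 ± 66.9, SD, n = 3) and had no read in the ears, which makes it at least 16665-fold higher in the internode when set against 3 reads over the 3 ears. Its log2 fold change in the fit was 16.41 ± 0.98 (SE) with an adjusted p of 2.78e-12, a size that depends on how the fit treats zeros. Outside the internode its highest mean was 12.8 CPM ± 2.37 (SD, n = 3), in the immature V2 leaf. Zm00001d015216 stood at 617 CPM in internode replicate 1 and at 148 and 149.7 CPM in replicates 2 and 3, again without a read in the ears (at least 13026-fold, log2 fold change 16.12 ± 1.06 SE, adjusted p = 2.07e-10). No library of another tissue held more than 1.51 CPM of it. The internodes thus agreed closely on the first gene, while on the second the library of the earlier harvest was over 4 times the others.

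In the other direction, Zm00001d048082 stood at 158, 137 and 133 CPM in the ears (143 ± 13.7, SD, n = 3) and had no read in the internodes. It was at least 4331-fold higher in the ear, with a log2 fold change of -15.02 ± 0.58 (SE) and an adjusted p of 8.60e-16. The ear was not its main site, since the silks held 434 CPM ± 42.3 and the 12 DAP seed 199.8 CPM ± 13.3 (SD, n = 3). Zm00001d023955 stood at 103, 81.6 and 81.5 CPM in the ears and was at least 2667-fold higher there (log2 fold change -14.34 ± 0.47 SE, adjusted p = 6.30e-17). It had its highest mean in the 12 DAP seed, 124 CPM ± 15.7 (SD, n = 3), which differed from the ear by more than the SD of either, and 25.8 CPM ± 1.08 in the silks. In leaves, roots and hypocotyls both ear genes had at most 1.39 CPM as a mean. In the 35 DAP seed they had 38.7 and 23.6 CPM, and in the tassel 22.3 and 1.93 CPM, respectively.

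A further 7 genes, which the study singles out by ID for their place in the networks of husk and immature leaf, were looked at in the same way. Of these, 5 had enough reads to be tested and 3 were called, 1 higher in the internode and 2 higher in the ear, a share close to the 61.0% of all genes. Their median log2 fold change was -0.62.

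The clearest difference among them was in the TBL family. TBL proteins, known best from Arabidopsis, take part in the acetylation of cell wall polysaccharides, and the study ties the family to trichomes and the secondary wall. Zm00001d045721 had 52.1, 38.1 and 47.4 CPM in the ears and 0.139, 0.499 and 0.199 CPM in the internodes. The ears were far above the internodes, 45.8 CPM ± 7.14 against 0.279 CPM ± 0.19 (SD, n = 3), with a log2 fold change of -7.30 ± 0.54 (SE) and an adjusted p of 1.07e-11. The ear was also its highest tissue, ahead of the hypocotyl with 14.2 CPM ± 2.22 and the immature V2 leaf with 11.6 CPM ± 4.44 (SD, n = 3), which differed from each other by less than the larger of these SDs. In the silks it had 9.53 CPM ± 5.84. In the adult leaf, the expanded V2 leaf and the tassel it was as low as in the internode or lower, below 0.1 CPM as a mean. The other family members with neighbouring IDs were hardly read: Zm00001d045720 had 1, 1 and 0 reads in the internodes and none in the ears, and Zm00001d045722 had none in any of the 6 libraries, so that no difference could be seen at this depth. Since the IDs are of 1 family, reads that fall on several copies would have been left out of the counts.

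The gene of the phosphotransmitter Zm00001d043505, a relay protein of cytokinin signalling, went the other way but at a very low level. The internodes had 41, 7 and 29 reads of it (1.43, 0.206 and 0.960 CPM) and the ears none. It was at least 36.7-fold higher in the internode when set against 3 reads over the ears, and the test gave a log2 fold change of 7.64 ± 1.35 (SE) with an adjusted p of 0.000118. Both organs were far below the green blades, where the adult leaf had 96.0 CPM ± 6.40 and the expanded V2 leaf 86.3 CPM ± 24.4 (SD, n = 3). The internode, at 0.864 CPM ± 0.62, differed from the hypocotyl (1.73 CPM ± 1.04) by less than the SD of the latter and was below the tassel (2.92 CPM ± 1.17) by more than either SD. No read was found in the silks, roots or seeds.

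The gene brick3 (Zm00001d023262) was moderately higher in the ear. Brick genes of maize encode parts of a complex that promotes actin polymerization and shapes the lobes of leaf epidermal cells. The ears had 201, 204 and 235 CPM and the internodes 149, 143 and 124 CPM, with no overlap. The log2 fold change was -0.62 ± 0.12 (SE), an ear level 1.54 times that of the internode, with an adjusted p of 6.37e-05. Over the 11 tissues the ear had the highest mean, 213 CPM ± 19.1, followed by the immature V2 leaf (195.5 CPM ± 30.3) and the silks (186 CPM ± 15.04), and neighbours in this order differed by less than the larger of their SDs. The internode came next, with 139 CPM ± 13.0, close to the hypocotyl with 137 CPM ± 4.47. The expanded V2 leaf was lowest, with 44.0 CPM ± 4.602 (SD, n = 3).

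The remaining pair was not called. Zm00001d015293, whose rice counterpart acts in leaf development, had 31.2, 37.5 and 39.9 CPM in the internodes and 40.2, 41.0 and 39.8 CPM in the ears. The ranges touched, and the log2 fold change of -0.16 ± 0.14 (SE) gave an adjusted p of 0.358. Its level in both organs was far below that of the tassel, 238 CPM ± 38.4 (SD, n = 3). Zm00001d008209, of the cyclophilin family of proline isomerases, which help proteins fold, had 0.866, 1.70 and 1.63 CPM in the ears and 0.243, 0.558 and 0.430 CPM in the internodes. The organs did not overlap, but with the spread shared over all 33 libraries the log2 fold change of -1.77 ± 1.01 (SE) was not past the threshold (adjusted p = 0.132). Replicates of other tissues varied widely in this gene, from 9.66 to 164 CPM in the immature V2 leaf. In a fit of the 6 libraries alone it was called, with a log2 fold change of -1.80 ± 0.43 (SE) and an adjusted p of 0.00691 in edgeR.

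**Figure D3:**
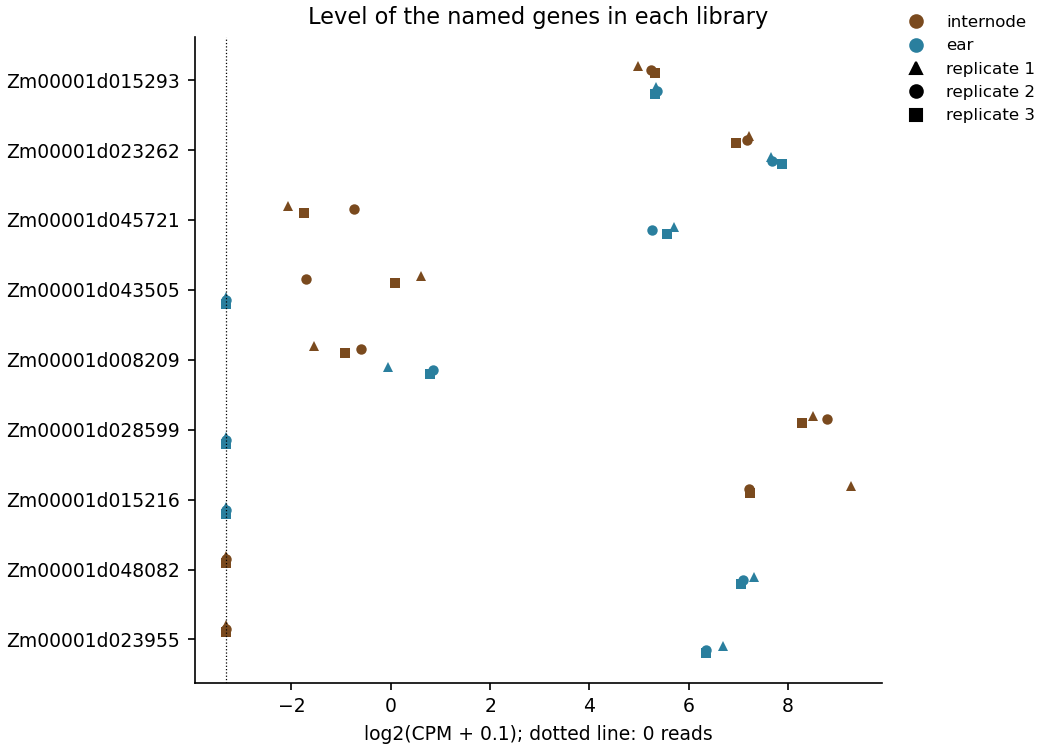
Level of the 5 tested genes that the study names and of the 4 genes with the largest folds, as log2(CPM + 0.1), in each of the 6 libraries; colour gives the organ and the shape of the point the replicate. Points on the dotted line are libraries without a read. Zm00001d015293 overlaps between the organs, brick3 (Zm00001d023262) is separated narrowly, and the last 4 genes have no read in 1 organ.

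Genes that were higher in the internode than in the ear had their highest level in other tissues than those higher in the ear. Of the 3747 genes over 4-fold higher in the internode, 1037 (27.7%) had their highest mean of all 11 tissues in the internode itself. Another 815 (21.8%) were highest in the expanded V2 leaf, 459 (12.2%) in the roots, 450 (12.0%) in the tassel and 419 (11.2%) in the blade of the adult leaf. The immature V2 leaf (4.08%), the silks (3.15%), the hypocotyl (2.62%) and the 12 DAP seed (1.57%) were seldom the highest tissue. Among all tested genes, 14.6% were highest in the expanded V2 leaf, 9.11% in the roots, 7.32% in the adult leaf and 15.6% in the tassel. The hypocotyl was highest for 5.24%, the immature V2 leaf for 6.67%, the silks for 8.44% and the 12 DAP seed for 7.62%. For the internode and the ear themselves these shares were 8.71% and 7.35%. Genes picked for being higher in 1 of these organs are favoured to be highest there by that choice.

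Of the 3819 genes over 4-fold higher in the ear, 883 (23.1%) were highest in the ear, 528 (13.8%) in the hypocotyl, 466 (12.2%) in the silks and 443 (11.6%) in the immature V2 leaf. The adult leaf was highest for 57 of them (1.49%) and the expanded V2 leaf for 141 (3.69%). The median of these ear genes, as log2(mean CPM + 1), was 2.77 in the ear, 2.37 in the hypocotyl, 2.23 in the immature V2 leaf and 1.63 in the 12 DAP seed. It was 0.32 in the internode and lower still in the adult leaf, at 0.24. The median of the internode genes was 3.16 in the internode, 2.81 in the tassel, 2.60 in the expanded and 1.66 in the immature V2 leaf, 2.39 in the adult leaf, 0.70 in the silks and 0.46 in the ear. For all tested genes it lay between 2.87 and 3.34 in every tissue. The seeds came from the field and the roots and hypocotyls from perlite, and for these an effect of the tissue and of the growth condition cannot be told apart.

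**Figure D4:**
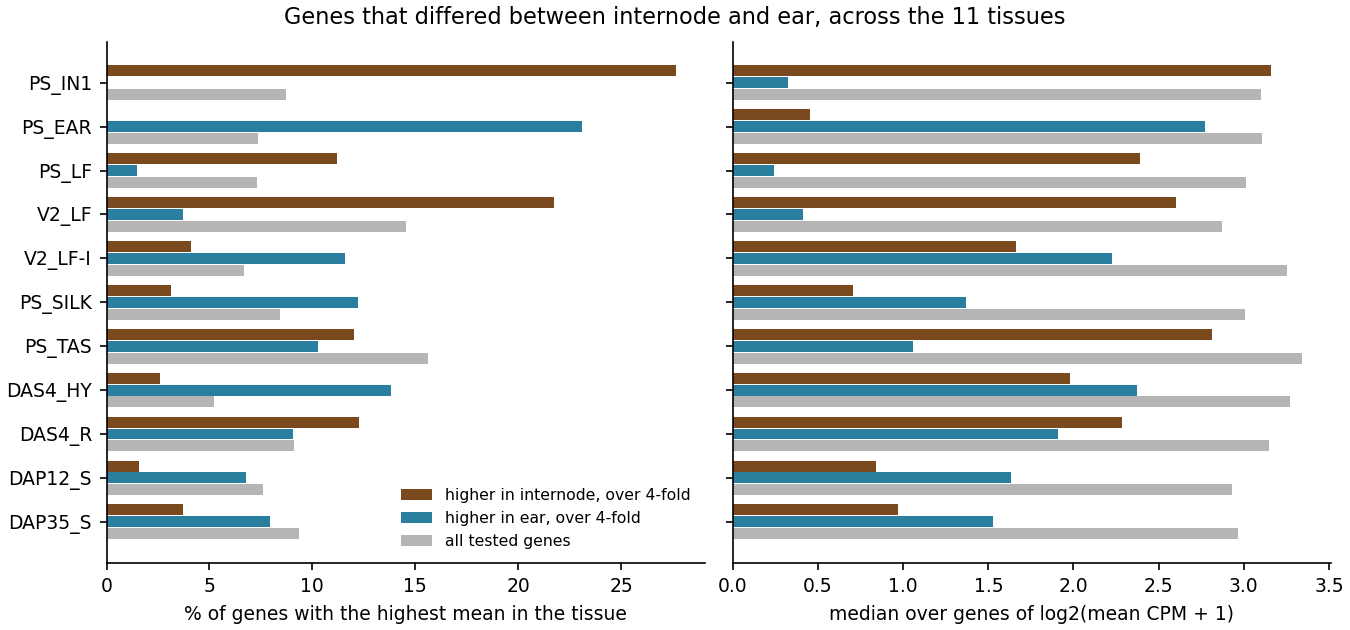
Left, the percentage of genes whose highest mean CPM of the 11 tissues lies in the tissue named on the y axis; right, the median over genes of log2(mean CPM + 1) in each tissue. Brown bars are the 3747 genes over 4-fold higher in the internode, blue bars the 3819 over 4-fold higher in the ear and grey bars all 28997 tested genes. Brown exceeds blue in both leaf blades, the roots and the tassel, and blue exceeds brown in the hypocotyl, the immature leaf, the silks and the seeds in the left panel.

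For each of the ear genes it was also asked to which of the 2 organs the level in another tissue was nearer. In the adult leaf 84.9% of the ear genes were nearer to the internode than to the ear, against 61.8% of all tested genes. In the hypocotyl 71.7% were nearer to the ear (60.6% of all), and in the immature V2 leaf 65.1% (56.5% of all). In the silks, which stand on the ear, 44.0% of the ear genes were nearer to the ear, less than the 53.1% of all tested genes. For the genes higher in the internode, 56.7% were nearer to the internode in the adult leaf (61.8% of all) and 63.8% in the tassel (57.5% of all). In the silks 25.9% (43.2% of all) and in the 12 DAP seed 22.5% (36.8% of all) of the internode genes were nearer to the internode. Genes picked for a high level in 1 organ can lie nearer to the other organ elsewhere through that choice alone. The shares are therefore a description, and their differences from all tested genes were not tested. Across genes, the silks correlated more with the ear (r = 0.873) than with the internode (r = 0.807).

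Genes that stood out from every other tissue were a minority. In 1219 features (2.63% of all) all 3 internode libraries were above all 30 libraries of the other tissues, among them 662 of the 3747 genes over 4-fold higher than in the ear (17.7%). The ear had 932 such features (2.01%), with 512 of its 3819 genes (13.4%). Genes chosen for being above the other organ are favoured in these shares by that choice. A mean over 4 times that of every other tissue was found in 198 of the internode features and 119 of the ear features. At a mean of at least 1 CPM, the genes over 4-fold higher in the internode reached a median of 7 of the 11 tissues, those higher in the ear 6 and all tested genes 11. At most 2 tissues were reached by 17.8% of the internode genes and 23.0% of the ear genes, against 18.2% of all tested genes, and these differences were not tested. Genes picked for being over 4-fold lower in 1 organ reach fewer tissues in part through that choice. Of the internode genes 37.7% reached 1 CPM in the ear (71.8% of all), and of the ear genes 30.3% in the internode (70.8% of all).

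The internode and the ear were each also set against the adult leaf and the silks in the same fit, and no other pairs were. Among these pairs, only the ear and the adult leaf differed in more genes than the internode and the ear. By the rule of over 4-fold, 26.1% of the tested genes differed between the internode and the ear, 25.7% between the internode and the adult leaf, and 23.9% between the internode and the silks. Between the ear and the silks it was 19.2%, and between the ear and the adult leaf 36.2%. These comparisons share libraries, and the differences between their counts were not tested.

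The organelle genes gave few reads in these libraries, which were made from RNA selected by its poly(A) tail. Reads on the 208 mitochondrial genes summed to 10.3, 9.37 and 18.4 CPM in the internodes and to 11.8, 24.2 and 9.89 CPM in the ears, and the organs overlapped. Those on the 157 plastid genes summed to 1.53, 1.73 and 2.48 CPM in the internodes and 0.325, 1.502 and 0.727 CPM in the ears. The internodes were above the ears here, narrowly so for ear replicate 2. Of 24 mitochondrial and 9 plastid genes tested, 3 were called, against 61.0% of all genes. Most of the organelle genes tested lay in the lowest class of level, up to 1.04 CPM, where 38.9% of genes were called. The part of the low level in the small number of calls was not tested. The 3 called genes and the other organelle genes below were chosen after their values had been seen.

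The plastid gene ycf3, whose protein is needed to assemble photosystem I, had 16, 19 and 25 reads in the internodes and 0, 8 and 3 reads in the ears. Every internode was above every ear, with a log2 fold change of 2.97 ± 0.68 (SE) and an adjusted p of 0.000454. The plastid gene petD, a subunit of the cytochrome b6f complex, had 11, 2 and 8 reads in the internodes and 0, 5 and 0 in the ears, and was not called (adjusted p = 0.0597). matK, the plastid maturase that helps splice introns, had 12, 26 and 23 against 6, 51 and 30 reads, with an adjusted p of 0.919. Of these plastid genes, each with few reads, ycf3 alone was called.

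Of the mitochondrial respiratory chain, 3 of the genes with most reads were not called, with standard errors that leave differences in either direction possible. cox1, of cytochrome oxidase, had 37, 42 and 91 reads in the internodes and 60, 230 and 56 in the ears (log2 fold change -0.44 ± 0.74 SE, adjusted p = 0.636). atp4, of the ATP synthase, had 46, 40 and 90 against 37, 159 and 64 reads (0.05 ± 0.65, adjusted p = 0.989). nad4, of the first complex of the chain, had 21, 28 and 39 against 33, 135 and 61 reads (-0.78 ± 0.71, adjusted p = 0.357). In all 3 genes ear replicate 2 stood above the other ears by more than its greater depth. The mitochondrial open reading frame orf140-b was called higher in the ear, with 14, 48 and 23 reads against 2, 8 and 7 in the internodes (adjusted p = 0.0226). Without ear replicate 2 its adjusted p was 0.103, and without internode replicate 1 it was 0.0964. The mitochondrial pseudogene rbcL-ct, a copy of a plastid gene and therefore uncertain, had 2, 2 and 9 reads in the internodes and 1, 0 and 0 in the ears (adjusted p = 0.00531), and 0.0832 without internode replicate 3.

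Among the non-coding features, none of the 154 miRNA precursors had a read in the 6 libraries. Of 235 other non-coding RNAs tested, 15 were called higher in the internode and 37 higher in the ear, in all 22.1% against 61.0% of all features. These shares were not matched for level, and in the lowest class of level 38.9% of genes were called. In a fit of the 6 libraries alone these counts were 6 and 24. Without ear replicate 2 they were 14 and 25, and without any other of the 6 libraries 10 to 14 and 29 to 44. The one with most reads had 3033, 4286 and 3609 reads in the internodes and 3, 65 and 5 in the ears, a log2 fold change of 7.81 ± 0.58 (SE) with an adjusted p of 3.31e-11. The one with the next most reads did not follow the organs. It had 505, 524 and 534 reads in the internodes and 468, 4125 and 531 in the ears, where replicate 2 alone was high. Summed over the class, ear replicate 2 had 305 CPM beside 137 and 146 CPM in the other ears and 256 to 257 CPM in the internodes, so that the internodes lay between the ears. The part of that library in the counts of this class was not tested beyond leaving it out.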

How the data were processed

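Reads were trimmed by the authors with Trimmomatic, cleared of ribosomal sequences with sortMeRNA and aligned with STAR to B73 RefGen_v4 (the build and STAR also stand in the submitters' processing notes). Per gene, the deposited files give the raw count of reads for 3 settings of the strand, without any normalization by the authors. For STAR, the version is not given in the sources used here. Counts of the reverse column were taken, as suits the stranded TruSeq kit. Lines that name no gene (10.8% to 13.5% of a file in the 6 libraries) were kept out.

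Counts of all 33 libraries were fitted in edgeR version 4.0.16 (R version 4.3.3) with 1 group per tissue, TMM scaling and filterByExpr (minimum count 10, minimum total 15), leaving 28997 genes and 22 residual degrees of freedom. The contrast was internode minus ear, tested by quasi-likelihood with Benjamini-Hochberg adjustment over all genes. The standard error was taken from the F statistic. Correlations used log2 CPM with a prior count of 2. The fit was first run on simulated data in which few genes changed and all had the same spread. That setting is unlike these data, so the run does not bear on the calls made here. Replicates differed by more than sampling noise (22.5 to 55.9 as chi-square over its degrees of freedom). Each is 1 plant.

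Genes named are those the paper names by ID and, by rule, the first 2 in each direction by fold among genes called without overlap at a mean of at least 50 CPM. The gene members and lists were chosen with earlier results of these data known. Lists by gene symbol, and the markers of cell types, matched 0 nuclear IDs. Lists by ontology term were not used, since the study's table gives different terms for the same gene in its sheets. Alternatives were other scalings, DESeq2 version 1.42.0, the 6 libraries alone, other filters, the unstranded column, terms for replicate number and harvest date, and leaving out libraries.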

Additional observations from a re-analysis of the deposited data

Results flagged for a closer look

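The forward column, which counts reads on the strand opposite to the annotated gene, was not used in the comparison, but it held a signal. It amounted to 1.26, 1.29 and 1.29 reads per 100 sense reads in the internodes and to 1.15, 1.15 and 1.18 in the ears. In 570 features every internode library had at least 10 such reads and more of them than sense reads, and in 599 features every ear library did. Both organs shared 381 of these, 66.8% of the internode features and 63.6% of the ear features. No sense read at all was found in 170 of the internode features and 174 of the ear features, above the limit that a count of 0 allows. The source of these reads was not tested.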

How the results depend on the processing

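All 60 counts of genes called under the alternatives (2 directions, with and without the fold of 4) stayed within 1.5 times the reported counts, and no gene called both here and under another scaling, with DESeq2 or without a library changed direction, while 8 did with the unstranded column. DESeq2 called 8957 genes higher in the internode and 9279 higher in the ear. Upper quartile scaling gave 8112 and 9659, with the median gene shifted by -0.10 on the log2 scale. The later harvest date alone, 2 against 2 libraries with the spread taken from all groups, gave 7987 and 7958. Without 1 library the counts ran from 8158 to 8410 for the internode and from 8274 to 8502 for the ear. Counted with 1 library of the organ left out, features highest in the internode among all tissues were 1365 to 1547 and those highest in the ear 1006 to 1158. Such counts cannot fall below the 1219 and 932 of all libraries, since fewer libraries have to stand above the rest. They are no check of those counts.

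Replicate numbers were not used to pair the organs in the main fit. The correlations of same-numbered deviations were low, 0.046 to 0.090, all under the limit of 0.1 used here. Each was still the best of its row and column, and a weak pairing cannot be told from none by such a limit. With the replicate block in the 6 libraries, 7655 and 8124 genes were called, against 7819 and 8326 without it and 8059 and 8573 with a term for harvest date. Of 174 values of single genes, 167 kept their direction and side of the threshold, 3 became calls (Zm00001d008209 in the fits of the 6 libraries), 4 lost their call (orf140-b and rbcL-ct) and none reversed. Zm00001d043505 had too few reads to be tested in the 6 libraries alone. Lists by symbol and ontology term were not run. Depth limits the organelle genes, most of which had under 100 reads per library.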
